A study of Mus musculus with 5 samples.

Results

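Single cells of a pair of Lkb1 -/- organoid cultures of the mouse small intestine were compared across all genes. These were 357 cells of the library titled Cys with 318 cells of the library titled Bud. Cells were taken by depth alone: wells with 1000 to 100000 unique molecular identifiers (UMIs, tags that mark single RNA molecules), spike-ins left out, were kept. This gave 675 of the 1699 cells that pass this rule in the 5 libraries. Organoids are epithelial cultures grown in 3 dimensions. Both cultures carry the genotype Lkb1 -/- made by gene editing and grew in the same medium, with 50 ng/mL Egf, 2.5% R-spondin1 conditioned medium and 1% Noggin conditioned medium, and no other treatment is labelled. The labels do not spell out the marks Cys and Bud. They are read here as cystic and budding growth, and the libraries are called Cys and Bud. The edited part of Stk11, the gene of LKB1, the number of clones and whether both cultures came from 1 animal are not given in the sources used here. Levels are also listed for 3 more libraries, 1 plate each. WT comes from wild-type small intestine, het carries 1 edited Lkb1 allele (Lkb1 +/-), and fetal comes from wild-type fetal gut.

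LKB1 is a protein kinase that, in a complex with the pseudokinase STRAD and the scaffold protein MO25, switches on AMPK and a family of related kinases that set cell polarity and energy use. In normal medium small intestinal organoids bud: buds hold LGR5-positive stem cells and Paneth cells, and differentiated enterocytes line the central cavity. Organoids from fetal gut, and adult organoids in a regenerative state, instead grow as round cysts and express another set of genes, among them Clu, Anxa1 and Ly6a.

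Depth was alike on both sides. The kept cells held 4381530 UMIs in Cys and 4199196 in Bud. A Cys cell held 1092 to 47777 UMIs with a median of 10375. A Bud cell held 1031 to 49761 with a median of 11385. Signs of RNA quality differed. Wells with over 2% of UMIs from Kcnq1ot1, a nuclear RNA often taken as a sign of damage, made up 6.16% of Cys and 13.5% of Bud cells. The ribosomal RNA precursor Rn45s took 7.09% of UMIs in Cys and 2.83% in Bud. Without the Kcnq1ot1-rich wells 97.2% of the genes called higher and 94.0% of those called lower were called again. All 384 well barcodes occur on both plates, and 300 of them were kept on both. They are positions on a plate, so a shared barcode is not a shared cell. There is 1 plate a side, so no test was made, and plate, culture and growth form cannot be told apart. The values below compare 2 libraries. Intervals are exact 95% counting intervals, which cover counting error only. Summed levels are in CPM, the usual unit of counts scaled to the library total. Within a sum more cells with a gene cannot be told apart from more RNA per cell, for which values per cell are given further on. Shares of cells were taken after thinning each cell to 3000 UMIs, which kept 314 Cys and 262 Bud cells.

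Both libraries were epithelial. Cdh1, the cadherin of epithelial junctions, was at 581 CPM in Cys and 593 CPM in Bud. Krt8, a keratin of simple epithelia, was at 2015 CPM in Cys and 2313 CPM in Bud. Epcam, an adhesion protein of intestinal epithelium, was at 407 CPM in Cys and 825 CPM in Bud (2.03-fold lower, 95% interval 1.92 to 2.15). Of the small intestinal markers, Vil1, which bundles actin in microvilli, was at 233 CPM in Cys and 305 CPM in Bud. Cdx1, Cdh17 and Lgr5 were far lower in Cys (values below). Fabp1, a lipid-binding protein of mature enterocytes, was at 2.05 CPM in Cys and 1.67 in Bud beside 615 in WT. Of the 9 listed epithelial genes 1 was called higher and 2 lower. Markers of immune, mesenchymal and neural cells were near 0. The immune list summed to 1.6 CPM in Cys and 6.43 CPM in Bud. The mesenchymal list summed to 2.05 CPM in Cys and 4.05 CPM in Bud, and the neural and glial list to 0.913 CPM in Cys and 2.86 CPM in Bud. Lists of 3 other cell types were not near 0 in Cys. Stratified squamous genes summed to 358 CPM in Cys and 3.81 CPM in Bud, of which Krt4 gave 328 and 2.14, while Krt5 and Sprr3 had no UMI in either. Endothelial genes summed to 338 CPM in Cys and 4.76 CPM in Bud, of which Tek gave 337 and 2.14, while Cdh5 and Emcn had no UMI in either. Pancreatic and biliary duct genes summed to 1895 CPM in Cys and 745 CPM in Bud, of which Krt7 gave 1456 and 431, while Ptf1a and Cpa1 had no UMI in either. After thinning, Tek had a UMI in 52.9% of Cys cells and Krt4 in 45.2%. The part of these other cell types in the results was not tested. Among the stomach markers of the check, Sox2 had 0 UMIs in Cys and 1 in Bud. Muc5ac, the surface mucin of the stomach, had 1 and 0. Stk11 itself was at 7.53 CPM in Cys and 11.7 CPM in Bud (33 and 49 UMIs; ratio 0.645, 95% interval 0.402 to 1.02). It was at 20.6 CPM in WT, 14.1 CPM in het and 16 CPM in fetal. A tag at the 3' end checks an edit only where the edit removes that tag, so the low counts say little about either genotype.

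Of 16077 genes with a UMI in either library, 11698 had at least 10 UMIs over both and were measured. A gene was called when its ratio was at least 1.5 and the counting interval excluded 1. This applied to 2141 genes that were higher in Cys (18.3%) and 2342 that were lower (20%), or 38.3% in either direction. These shares are the background for every list below. A gene enters through either library, so the counts describe the lists and do not test them. The median log2 ratio over all measured genes, with 10 CPM added to both values, was -0.05, with percentiles 5 and 95 at -0.99 and 1.06. A ratio of at least 2 was met by 1409 higher and 1404 lower genes. Cells thinned to 3000 UMIs gave 1415 and 1543 calls. Differences of at least 10-fold were found for 366 higher and 344 lower genes, and of at least 100-fold for 49 and 42, with genes at 0 set to a floor of 3 UMIs. The higher genes supplied 27.7% of the UMIs of Cys and 10.4% of those of Bud, and the lower genes 11.1% and 23.8%.

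**Figure D1:**
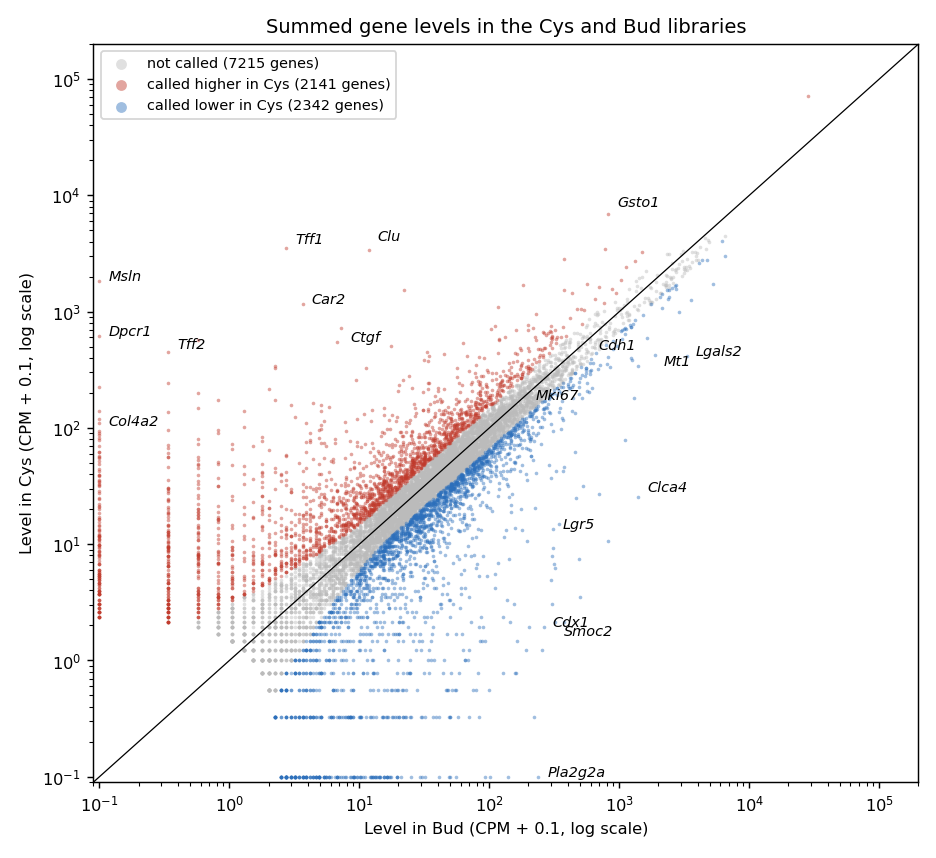
Level of each measured gene in Bud (x axis) and Cys (y axis), in CPM plus 0.1 on log axes; colours mark the 2141 genes called higher and the 2342 called lower in Cys. Tff1, Msln and Clu lie far above the diagonal, Clca4, Cdx1 and Lgr5 far below it, and Mki67 and Cdh1 lie near it.

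Some genes came close to marking single cells of 1 library. In Cys, 21 genes had a UMI in at least 25% of thinned cells and in at most 1% of thinned Bud cells; 7 of them reached at least 50%. Msln, which encodes the mesothelial surface protein mesothelin, was found in 95.9% of thinned Cys cells and 0% of thinned Bud cells (96.4% and 0% before thinning). Tff1, a trefoil peptide of stomach mucus, was found in 91.1% of thinned Cys cells and 0.382% of thinned Bud cells (98.6% and 0.943% before thinning). Ltf, the iron-binding defence protein lactotransferrin, was found in 70.7% of thinned Cys cells and 0.382% of thinned Bud cells (84.9% and 0.629% before thinning). The others were Ctgf (66.2% of thinned Cys cells), Dpcr1 (65.9%), Tek (52.9%) and Sftpd (50.3%). Ctgf is a matrix protein and a classic YAP target, Dpcr1 a mucin-like gene, Tek a receptor tyrosine kinase best known from endothelium and Sftpd a secreted lectin of lung surfactant. In the reverse direction 18 genes were found in at least 25% of thinned Bud cells and at most 1% of Cys cells, and 3 of them reached 50%. B4galnt2, which makes a blood group glycan of the gut, was found in 64.9% of thinned Bud and 0.955% of thinned Cys cells. Smoc2, a stem cell gene, was found in 60.3% and 0.318%.

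Genes of fetal and regenerating gut epithelium were higher in Cys where they were called: 24 of 26 listed genes were measured, with 19 called higher and 0 called lower and a median log2 ratio of 2.20. The list summed to 22568 CPM in Cys, 5083 in Bud, 3498 in WT, 3157 in het and 27568 in fetal. Clu, a secreted chaperone that marks revival stem cells after injury, was at 3388 CPM in Cys and 11.7 CPM in Bud (290.4-fold higher, 95% interval 219.5 to 393). Elsewhere it was at 10.4 CPM in WT, 11.1 CPM in het and 4158 CPM in fetal. Msln was at 1822 CPM in Cys and had no UMI in Bud (at least 2551-fold higher). It was at 0 CPM in WT, 1.37 CPM in het and 1032 CPM in fetal. Il33, an alarm cytokine, was at 1521 CPM in Cys and 21.9 CPM in Bud (69.4-fold higher, 95% interval 56.5 to 86.2). Elsewhere it was at 1.98 CPM in WT, 1.14 CPM in het and 239.5 CPM in fetal. Bud, WT and het were all low for these 3 genes, and fetal was high for Msln and Clu. S100a6, a calcium-binding protein, was at 2821 CPM in Cys and 378 CPM in Bud (7.46-fold higher, 95% interval 7.08 to 7.86). Anxa1 was at 1106 CPM in Cys and 115 CPM in Bud (9.57-fold higher, 95% interval 8.72 to 10.5). Ly6a, the surface antigen Sca-1, was at 502 CPM in Cys and 17.4 CPM in Bud (28.9-fold higher, 95% interval 22.9 to 37). Basp1, a membrane-bound cytoskeletal protein, and Gja1, the gap junction protein connexin 43, had no UMI in Bud and 223 and 55.9 CPM in Cys. The 5 members that were not called were Ly6e (2228 against 1594 CPM), Cldn4 (58 against 57.6 CPM), Emp1 (68.5 against 54.8 CPM), F3 (26.9 against 20 CPM) and Tspan8 (321 against 431 CPM). The list was chosen with its difference known, so its direction is a description.

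Gastric genes had the largest median ratio among the lists with at least 10 measured members: 18 of 22 listed genes were measured, with 14 called higher and 2 called lower and a median log2 ratio of 2.97. Together they came to 6682 CPM in Cys, 90.3 in Bud, 85 in WT, 86.5 in het and 217 in fetal, so the level in Cys was above that of all other libraries. Tff1 was at 3526 CPM in Cys and 2.62 CPM in Bud (1346-fold higher, 95% interval 752 to 2697). It was at 0.248 CPM in WT, 0.228 CPM in het and 2.9 CPM in fetal. Of the 6 trefoil and gastrokine genes, all measured, 5 were higher and Tff3 was lower. Tff2, the trefoil peptide of mucous neck cells, was at 448 CPM in Cys and 0.238 CPM in Bud, which was 1 UMI in Bud (1880-fold higher, 95% interval 337 to 74307). Gkn1, a gastrokine of the stomach surface, was at 553 CPM in Cys and 6.67 CPM in Bud (82.9-fold higher, 95% interval 57.2 to 125). The other gastrokines Gkn2 and Gkn3 were at 70.1 against 0 CPM and 453 against 32.9 CPM. Dpcr1 had 621 CPM in Cys and no UMI in Bud (at least 869-fold higher). The 22 listed names also hold Mucl3, another name of Dpcr1, under which no UMI was counted in either library. The aspartic protease Ctse (199 against 0.476 CPM), the junction protein Vsig1 (328 against 11.2 CPM) and the annexin Anxa10 (257 against 9.29 CPM) went the same way. The water channel Aqp5 and the surface antigen Psca had no UMI in Bud and were at 62.3 and 35.8 CPM in Cys. The lower members were Pgc, the zymogen of a gastric protease (0 against 12.6 CPM), and the protease Capn9 (0 against 4.29 CPM). Transcription factors of foregut and stomach did not share 1 direction: 9 of 19 listed genes were measured, with 4 called higher and 4 called lower and a median log2 ratio of -0.10. Foxa1 (228 against 93.6 CPM), Foxq1 (123 against 37.6 CPM), Sox21 (64.1 against 36 CPM) and Pitx1 (23.7 against 0.953 CPM) were higher. Gata4 (38.6 against 112 CPM), Foxa2 (22.8 against 38.1 CPM), Tbx3 (10.5 against 31.9 CPM) and Hoxa5 (5.48 against 10 CPM) were lower.

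Promoters of the 2 lists are shown for sequence context, and the lists also hold members that were not higher in Cys. The motif of AP-1, a factor of stress and growth signals, was searched as TGANTCA on both strands in the 250 bases before each gene's start (RefSeq, build GRCm38.p6). A gene counts once if any of its listed starts has it. It was found for 7 of 17 matched genes of the fetal list (41.2%; Anxa2, S100a11, Il1rn, Cldn4, Emp1, F3 and Gja1). It was found for 3 of 15 matched gastric genes (20%; Gkn1, Anxa10 and Capn8) and 3 of 16 of the NRF2 list below (18.8%), against 7.82% of the 27025 genes with a promoter in the table. Of these 10 genes, Cldn4, Emp1, F3 and Capn8 were not called. The shares are thus not those of higher genes alone. Clu, Msln and Tff1 had no promoter among those searched, so they are not among the matched genes. Of the motifs searched, AP-1 had the largest share in the fetal and gastric lists. The TEAD motif, described below, was found for 3 of 17 fetal and 0 of 15 gastric genes, against 14.4% of all genes. The antioxidant response element, also below, was found for 1 of 17 and 2 of 15, against 11.5%. Dpcr1 and Mucl3, names of the same gene, are both among the 15 matched gastric names and both count for this element. The promoters of S100a11 and Gkn1 read as follows, 5' to 3' on the gene's strand, with the motif in capitals. A match of letters is a description, and no binding was measured:
S100a11 (chr3:93520246-93520495, plus strand): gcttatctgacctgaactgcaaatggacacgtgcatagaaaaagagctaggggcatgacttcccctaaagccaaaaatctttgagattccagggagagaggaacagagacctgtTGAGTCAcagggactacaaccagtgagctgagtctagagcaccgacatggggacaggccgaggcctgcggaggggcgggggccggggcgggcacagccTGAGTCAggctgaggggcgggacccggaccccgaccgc
Gkn1 (chr6:87350916-87351165, minus strand): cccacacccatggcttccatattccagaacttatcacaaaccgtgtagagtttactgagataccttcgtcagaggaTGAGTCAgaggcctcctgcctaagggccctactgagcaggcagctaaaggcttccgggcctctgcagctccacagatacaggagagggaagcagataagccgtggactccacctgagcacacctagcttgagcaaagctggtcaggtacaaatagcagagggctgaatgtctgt

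YAP and TAZ are transcription coactivators that respond to cell shape and matrix contact and act through TEAD factors. Of their targets, 20 of 24 listed genes were measured, with 12 called higher and 2 called lower and a median log2 ratio of 0.52. The sum was 1399 CPM in Cys, 352 in Bud, 308 in WT, 354 in het and 4252 in fetal. Ctgf was at 727 CPM in Cys and 7.14 CPM in Bud (102-fold higher, 95% interval 71.2 to 151). The other libraries had 2.23 CPM in WT, 2.73 CPM in het and 796 CPM in fetal. Ankrd1, an ankyrin repeat protein, was at 30.6 CPM in Cys and 0.238 CPM in Bud (128-fold higher, 95% interval 22.7 to 5110). Ajuba, an adaptor of cell junctions, was at 132 CPM in Cys and 10.7 CPM in Bud (12.4-fold higher, 95% interval 9.11 to 17.1). Myof (89.7 against 4.05 CPM), Ptpn14 (39.7 against 5 CPM), Lats2 (15.5 against 2.86 CPM), Amotl2 (30.1 against 10.2 CPM) and Tead4 (11.9 against 0.714 CPM) were also higher. Lats2, Amotl2 and Ptpn14 encode inhibitors of the pathway. Cyr61, as classic a target as Ctgf, was not called (22.6 against 28.3 CPM; ratio 0.797, 95% interval 0.604 to 1.05). Nuak2 (10.3 against 16.2 CPM) and Arhgef17 (2.51 against 8.33 CPM) were lower. The TEAD motif, searched as GGAATG on both strands, was in the 250 bases before the start of 7 of 18 matched targets (38.9%; Cyr61, Ankrd1, Amotl2, Axl, Crim1, Ajuba and Ptpn14), against 14.4% of all genes in the table. Ctgf had no promoter among those searched, so it is not among the matched targets. Ankrd1 and Ptpn14 are shown, with the motif (or its reverse complement CATTCC) in capitals, because both were higher in Cys while Cyr61, which also holds the motif, was not called.
Ankrd1 (chr19:36119845-36120094, minus strand): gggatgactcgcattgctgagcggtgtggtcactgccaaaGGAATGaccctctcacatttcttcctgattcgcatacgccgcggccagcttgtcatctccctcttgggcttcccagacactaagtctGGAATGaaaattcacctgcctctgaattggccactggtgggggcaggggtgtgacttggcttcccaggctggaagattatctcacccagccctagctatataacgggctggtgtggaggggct
Ptpn14 (chr1:189728018-189728267, plus strand): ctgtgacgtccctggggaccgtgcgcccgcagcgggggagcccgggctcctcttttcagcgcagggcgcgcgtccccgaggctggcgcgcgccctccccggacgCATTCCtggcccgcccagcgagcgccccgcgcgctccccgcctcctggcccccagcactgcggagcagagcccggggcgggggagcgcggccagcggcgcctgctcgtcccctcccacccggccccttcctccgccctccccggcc

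Genes of the basement membrane and of its receptors had many higher members. Of integrins, laminins and collagens, 19 of 29 listed genes were measured, with 12 called higher and 0 called lower and a median log2 ratio of 1.11. The list summed to 1659 CPM in Cys, 552 in Bud, 555 in WT, 590.4 in het and 3918 in fetal. The chains of type IV collagen had no UMI in Bud and were at 139 CPM (Col4a2, at least 194-fold higher) and 62.5 CPM (Col4a1, at least 87.5-fold higher) in Cys. In fetal they were at 111 and 129 CPM. Col18a1, a collagen of basement membranes, also had no UMI in Bud (42.9 CPM in Cys). Laminin chains followed: Lama5 143 against 30.7 CPM, Lamc1 92.7 against 22.9 CPM and Lamb2 45.6 against 15.7 CPM. Among receptors, Itga3 (276 against 78.6 CPM), Itgb4 (239.6 against 71.7 CPM), Itgav (46.8 against 11.2 CPM) and Itgb1 (316 against 197 CPM) were higher. Itga6, the partner of Itgb4 in hemidesmosomes, was not called (30.1 against 31.4 CPM). No member was called lower over all cells, and 1 was in cells with at least 3 G2 and M phase UMIs.

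Targets of NRF2, the factor that answers oxidative stress, were measured together with the metallothioneins, which bind zinc and copper. In this list 17 of 20 listed genes were measured, with 13 called higher and 3 called lower and a median log2 ratio of 1.56. The 3 lower members were Mt1, Mt2 and Slc7a11. Gsto1, a glutathione transferase, was at 6902 CPM in Cys and 816 CPM in Bud (8.45-fold higher, 95% interval 8.16 to 8.76). Elsewhere it was at 917 CPM in WT, 814 CPM in het and 1463 CPM in fetal. Gsta4 was at 1694 CPM in Cys and 179.8 CPM in Bud (9.42-fold higher, 95% interval 8.74 to 10.2). Aldh1a1, which makes retinoic acid, was at 705 CPM in Cys and 103 CPM in Bud (6.85-fold higher, 95% interval 6.19 to 7.6). Both subunits of the enzyme that limits glutathione synthesis were higher. Gclc was at 317 CPM in Cys and 95.3 CPM in Bud (3.32-fold higher, 95% interval 2.97 to 3.72) and Gclm at 281 CPM in Cys and 88.6 CPM in Bud (3.17-fold higher, 95% interval 2.82 to 3.57). Cbr3 (97.9 against 5 CPM) and Hmox1, heme oxygenase (34.5 against 1.67 CPM), were higher too. Mt1 went the other way, with 425 CPM in Cys and 1875 CPM in Bud (4.41-fold lower, 95% interval 4.2 to 4.65) and 4572 CPM in WT, 2655 CPM in het and 236 CPM in fetal. So did Mt2, with 179.8 CPM in Cys and 1302 CPM in Bud (7.24-fold lower, 95% interval 6.72 to 7.81). Slc7a11, the cystine importer and itself a standard NRF2 target, was lower (26.9 against 64.3 CPM), and Txnrd1 was not called (220.0 against 185 CPM). The antioxidant response element, searched as TGACNNNGC on both strands, was in the 250 bases before the start of 5 of 16 matched genes (31.2%; Mt2, Gclm, Txnrd1, Gsta3 and G6pdx), against 11.5% of all genes in the table. It was thus found in 3 higher members, the lower Mt2 and the uncalled Txnrd1. Gclm and Gsta3 are shown with the element, or its reverse complement, in capitals.
Gclm (chr3:122245307-122245556, plus strand): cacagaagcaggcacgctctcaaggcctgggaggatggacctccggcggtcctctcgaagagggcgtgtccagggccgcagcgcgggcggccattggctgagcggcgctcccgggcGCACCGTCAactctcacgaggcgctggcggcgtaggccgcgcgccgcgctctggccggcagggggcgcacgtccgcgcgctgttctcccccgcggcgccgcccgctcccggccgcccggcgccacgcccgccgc
Gsta3 (chr1:21240335-21240584, plus strand): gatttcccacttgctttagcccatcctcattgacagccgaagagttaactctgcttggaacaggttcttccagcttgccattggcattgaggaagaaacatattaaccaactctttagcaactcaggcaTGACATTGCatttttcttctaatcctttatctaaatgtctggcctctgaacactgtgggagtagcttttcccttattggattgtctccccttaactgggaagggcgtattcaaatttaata

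Targets of p53, the factor of the DNA damage response, were mostly higher: 22 of 24 listed genes were measured, with 17 called higher and 1 called lower and a median log2 ratio of 0.87. The list summed to 2403 CPM in Cys, 847 in Bud, 789 in WT, 808 in het and 2615 in fetal. Ccng1, cyclin G1, was at 566 CPM in Cys and 119 CPM in Bud (4.74-fold higher, 95% interval 4.31 to 5.23). Cdkn1a, the inhibitor p21 of cyclin-dependent kinases, was at 444 CPM in Cys and 159 CPM in Bud (2.8-fold higher, 95% interval 2.56 to 3.06). Bax, which opens mitochondria in apoptosis, was at 236 CPM in Cys and 61.2 CPM in Bud (3.85-fold higher, 95% interval 3.36 to 4.43). Mdm2, the ligase that degrades p53, was at 96.3 CPM in Cys and 36.4 CPM in Bud. Zmat3 was at 145 CPM in Cys and 33.8 CPM in Bud and the death receptor Eda2r at 69.2 CPM in Cys and 9.53 CPM in Bud. Sesn1 was lower (6.62 against 20.2 CPM), and Bbc3 (10.5 against 7.86 CPM) and Gdf15 (23.5 against 18.8 CPM) were not called. The related list of senescence and cell cycle inhibitors gave 7 higher and 1 lower of 13 measured, median log2 ratio 0.45. Cdkn2a, the locus of p16 and p19ARF, had no UMI in Bud and 11.6 CPM in Cys (at least 16.3-fold higher; 14.8 CPM in fetal).

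Stem cell genes split. Of the intestinal stem cell list 17 of 18 listed genes were measured, with 1 called higher and 8 called lower and a median log2 ratio of -0.41. Lgr5, the R-spondin receptor that defines crypt stem cells, was at 13.5 CPM in Cys and 309.8 CPM in Bud (23-fold lower, 95% interval 17.7 to 30.4). Elsewhere it was at 278 CPM in WT, 293 CPM in het and 102 CPM in fetal. Smoc2, a matricellular protein of the same cells, was at 2.05 CPM in Cys and 319 CPM in Bud (155-fold lower, 95% interval 81.7 to 341). It was at 312 CPM in WT, 287 CPM in het and 0 CPM in fetal. Ascl2, a transcription factor that maintains them, was at 26.9 CPM in Cys and 150.3 CPM in Bud (5.58-fold lower, 95% interval 4.58 to 6.85). It was at 157 CPM in WT, 141 CPM in het and 14 CPM in fetal. For each of these 3 genes Cys lay below Bud, WT and het. Cdca7 (48.2 against 286 CPM) and Slc12a2 (335 against 851 CPM) were lower too. By contrast Prom1, the membrane protein CD133, was at 1542 CPM in Cys and 375 CPM in Bud (4.12-fold higher, 95% interval 3.9 to 4.35). The broader progenitor genes Sox9 (552 against 514 CPM), Cd44 (428 against 353 CPM), Ephb2 (77.4 against 77.9 CPM) and Ephb3 (169.6 against 124 CPM) were not called. The list of WNT feedback genes and targets had 1 higher and 7 lower of 13 measured, median log2 ratio -0.47. Axin2, a negative feedback gene of WNT signalling, was at 10.5 CPM in Cys and 196 CPM in Bud (18.6-fold lower, 95% interval 13.8 to 25.6). The Paneth cell ligand Wnt3 was at 0.228 CPM in Cys and 20.2 CPM in Bud, and the growth regulator Myc at 112 CPM in Cys and 191 CPM in Bud. The feedback ligases Rnf43 (39.9 against 56.2 CPM) and Znrf3 (30.4 against 43.6 CPM) were not called. Ccnd1, cyclin D1, was higher (486 against 267 CPM). Each culture was given the same R-spondin1, per the labels' protocols.

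Transcription factors of intestinal identity were lower in part: 18 of 19 listed genes were measured, with 2 called higher and 10 called lower and a median log2 ratio of -0.61. The list summed to 1389 CPM in Cys, 2807 in Bud, 2795 in WT, 3310 in het and 704 in fetal. Cdx1, a homeobox factor that sets intestinal fate, was at 1.83 CPM in Cys and 262 CPM in Bud (143-fold lower, 95% interval 72.5 to 333). The other libraries had 215 CPM in WT, 236 CPM in het and 0.17 CPM in fetal. Its relative Cdx2 was at 8.44 CPM in Cys and 41.7 CPM in Bud (4.94-fold lower, 95% interval 3.45 to 7.24), and at 44.4 CPM in WT, 36.2 CPM in het and 5.8 CPM in fetal. Vdr, the vitamin D receptor, was at 9.13 CPM in Cys and 307 CPM in Bud (33.6-fold lower, 95% interval 24.6 to 47.3). Isx, a regulator of vitamin A uptake, was at 0.456 CPM in Cys and 78.3 CPM in Bud. Hnf4a was at 138 CPM in Cys and 435 CPM in Bud (3.14-fold lower, 95% interval 2.87 to 3.45) and Hnf4g at 14.4 CPM in Cys and 65.7 CPM in Bud. Cdh17, the intestinal cadherin, was at 31.7 CPM in Cys and 522 CPM in Bud (16.5-fold lower, 95% interval 13.9 to 19.7). Other members did not follow. Gata5 was higher (114 against 50.2 CPM). Klf5 (771 against 679 CPM) and Gata6 (74.4 against 100.5 CPM) were not called. The CDX motif, searched as TTTATG on both strands, was in the 250 bases before the start of 0 of 10 matched genes of this list and 6 of 26 matched enterocyte genes (23.1%), against 12.4% of all genes. The fetal list, whose called members were higher in Cys, held it in 4 of 17 matched genes (23.5%), so the share did not separate higher from lower lists. Of the HOX genes 6 of 29 were measured, none above 10 CPM (Hoxa5 in Bud), 2 higher and 3 lower.

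Enterocyte genes were lower with no exception among the called ones: 23 of 31 listed genes were measured, with 0 called higher and 20 called lower and a median log2 ratio of -1.18. The list summed to 363 CPM in Cys, 3640 in Bud, 6696 in WT, 10341 in het and 309.6 in fetal, with Bud between Cys and WT. Among cells with at least 3 G2 and M phase UMIs, 10 members were called lower. Clca4, of the family of chloride channel regulators, was at 25.1 CPM in Cys and 1394 CPM in Bud (55.5-fold lower, 95% interval 46 to 67.7). The other libraries had 1379 CPM in WT, 1242 CPM in het and 109 CPM in fetal. Mgam, which splits starch sugars at the brush border, was at 24.9 CPM in Cys and 467 CPM in Bud (18.8-fold lower, 95% interval 15.5 to 23). The glucose carrier Slc5a1 was at 2.05 CPM in Cys and 145 CPM in Bud and sucrase-isomaltase, Sis, at 2.28 CPM in Cys and 127 CPM in Bud. The log2 ratio of Sis, with 10 CPM added, was -3.48 over all cells and -0.58 in cells with at least 3 G2 and M phase UMIs. Fabp1 (2.05 against 1.67 CPM), Apob (27.8 against 25.5 CPM) and Vil1 (233 against 305 CPM) were not called. Structural genes of the brush border had 2 higher and 6 lower of 17 measured, median log2 ratio -0.37. Ush1c, which anchors microvillus links, had no UMI in Cys and 92.2 CPM in Bud. The microvillus motors Myo7b (35.6 against 193 CPM) and Myo1a (42.2 against 136 CPM) were lower. Ezr, the linker of membrane and actin, was higher (750.4 against 296 CPM).

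**Figure D2:**
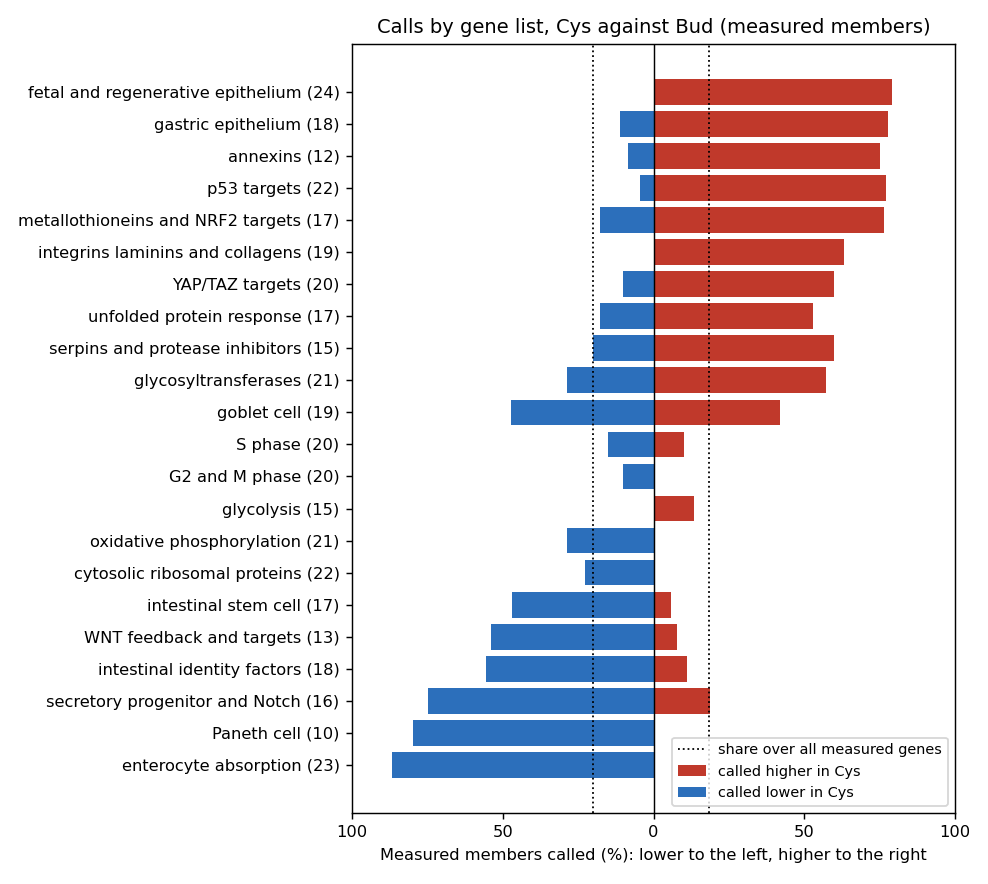
Share of the measured members of 22 gene lists called higher (right, red) or lower (left, blue) in Cys, in percent. The number of measured members is in brackets, and dotted lines mark the shares over all measured genes, 18.3% and 20%. Fetal, gastric, p53 and NRF2 lists extend to the right, enterocyte, Paneth and secretory progenitor lists to the left, and cell cycle and glycolysis lists show few calls.

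The secretory lineages differed from one another. Of goblet genes 19 of 20 listed genes were measured, with 8 called higher and 9 called lower and a median log2 ratio of -0.25. The examples named here were chosen after their values were seen. Lower members included genes of mucus itself. The mucin Muc2 was at 6.85 CPM in Cys and 117 CPM in Bud (17.1-fold lower, 95% interval 11.8 to 25.6). The mucus protein Fcgbp was at 20.3 CPM in Cys and 223 CPM in Bud (11-fold lower, 95% interval 8.81 to 13.8). Tff3 was at 401 CPM in Cys and 1221 CPM in Bud (3.04-fold lower, 95% interval 2.88 to 3.22) and Zg16 at 0.913 CPM in Cys and 35.2 CPM in Bud. Single cells weighed in the Bud sums. After thinning, the Bud cell richest in goblet genes held 158 UMIs of Muc2 and 37 of Zg16, and the next richest 0 of both. The counting intervals do not cover this spread between cells. Higher members included Agr2 and Spdef. Agr2, which folds mucins, was at 688 CPM in Cys and 161 CPM in Bud (4.28-fold higher, 95% interval 3.93 to 4.66). Spdef, a factor of goblet maturation, was at 92.2 CPM in Cys and 14.8 CPM in Bud (6.24-fold higher, 95% interval 4.77 to 8.3). Ern2, the sensor of protein folding in mucus cells, was at 117 CPM in Cys and 24.5 CPM in Bud and Creb3l1 at 294 CPM in Cys and 105 CPM in Bud. In cells with at least 3 G2 and M phase UMIs the log2 ratio, with 10 CPM added, was -1.23 for Muc2 and -0.21 for Zg16, against -2.91 and -2.05 over all cells. Paneth genes showed 1 direction: 10 of 18 listed genes were measured, with 0 called higher and 8 called lower and a median log2 ratio of -1.75. The lowest member was Pla2g2a (0 against 239 CPM), which also differed among the other adult libraries (values below). Lyz1, lysozyme, was at 2.97 CPM in Cys and 156 CPM in Bud (52.4-fold lower, 95% interval 30.4 to 99). Ang4, a defence ribonuclease, had no UMI in Cys and 49.3 CPM in Bud. Enteroendocrine genes gave 1 higher and 5 lower of 6 measured, median log2 ratio -0.51. Neurog3, the factor that starts that lineage, was at 0.685 CPM in Cys and 128 CPM in Bud (187-fold lower, 95% interval 63.8 to 912), and the hormone ghrelin, Ghrl, at 0.228 CPM in Cys and 70.01 CPM in Bud. For Ghrl the log2 ratio was -2.97 over all cells and -0.58 in cells with at least 3 G2 and M phase UMIs. Of secretory progenitor and Notch genes 16 of 19 listed genes were measured, with 3 called higher and 12 called lower and a median log2 ratio of -0.96. Dll1, a Notch ligand (0.456 against 19.5 CPM), Notch1 (25.3 against 57.4 CPM), and the Notch target Hes1 (114 against 237 CPM) were lower. The ligand Jag2 (27.8 against 10 CPM) and the receptors Notch2 (23.1 against 13.8 CPM) and Notch3 (13 against 6.43 CPM) were higher. Tuft cell genes (2 higher and 0 lower of 4 measured, median log2 ratio 1.17) reached 10 UMIs in no thinned cell of either library. The higher members were Ptgs1 (52.5 against 0.476 CPM) and Avil (41.3 against 2.14 CPM), and the channel Trpm5 was not called (1.14 against 3.33 CPM).

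The secretory lists were also counted by cell. After thinning, 58 Cys cells (18.5%) and 40 Bud cells (15.3%) held at least 10 UMIs of goblet genes, the 95% intervals being 14.3% to 23.2% and 11.1% to 20.2%. The shares do not show that goblet levels were alike: the cell at percentile 95 held 16.4 goblet UMIs in Cys and 62.9 in Bud. The 5 richest cells held 58 to 297 in Cys and 140 to 491 in Bud. The cell with most goblet UMIs in Cys held 297, of which Tff3 gave 215 and Muc2 gave 6. The same cell held 71 UMIs of Tff1 and 79 of Tff2. Its counterpart in Bud held 491, with 158 from Muc2, 104 from Tff3 and 104 from Fcgbp, and no UMI of Tff1 or Tff2. At least 10 Paneth UMIs were found in 2 Cys and 16 Bud cells. The Paneth list includes Pla2g2a, which had a UMI in 37.4% of thinned Bud cells and 0% of thinned Cys cells. Pla2g2a gave 239 of the list's 687 CPM in Bud, and cells were not counted without it. No Cys cell, which allows a share of up to 0.955%, and 12 Bud cells (4.58%) held 10 enteroendocrine UMIs. For secretory progenitor genes these counts were 0 and 16 (6.11%).

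Several gene families held called members of both directions. Of the annexins, calcium-dependent membrane binders, 12 of 12 were measured, 9 higher and 1 lower, with a median log2 ratio of 1.52. Anxa3 was at 413 CPM in Cys and 34.1 CPM in Bud (12.1-fold higher, 95% interval 10.2 to 14.5) and Anxa8 at 95.4 CPM in Cys and 0.714 CPM in Bud. Anxa13, the intestinal annexin, was at 6.62 CPM in Cys and 312 CPM in Bud (47.1-fold lower, 95% interval 32.7 to 70.7) and Anxa4 was not called (675 against 908 CPM). S100 genes gave 7 higher and 2 lower of 12 measured, median log2 ratio 0.74. S100a11 was at 3469 CPM in Cys and 772 CPM in Bud (4.49-fold higher, 95% interval 4.33 to 4.67) and S100a1 at 376 CPM in Cys and 33.6 CPM in Bud. S100a10, the partner of Anxa2, was not called (341 against 331 CPM). S100g, the vitamin D-dependent calcium carrier of gut, was lower (1.37 against 21.4 CPM). Claudins and tight junction genes gave 6 higher and 2 lower of 17 measured, median log2 ratio 0.30. The cation pore Cldn2 was at 1731 CPM in Cys and 566 CPM in Bud (3.06-fold higher, 95% interval 2.92 to 3.2). The sodium pore Cldn15 was at 0.228 CPM in Cys and 219 CPM in Bud, which was 1 UMI in Cys (958-fold lower, 95% interval 171 to 37874). Cldn3 was lower (147 against 348 CPM) and Cldn7 (497 against 642 CPM) and Ocln (76.7 against 67.4 CPM) were not called. Keratins gave 4 higher and 2 lower of 9 measured, median log2 ratio 0.10. Krt4, a keratin of stratified linings such as the oesophagus, was at 328 CPM in Cys and 2.14 CPM in Bud (153-fold higher, 95% interval 80.3 to 335). Krt20, a keratin of mature gut cells, was at 1.6 CPM in Cys and 20.2 CPM in Bud, while Krt18 was not called (1146 against 1084 CPM). All 4 measured genes of stratified squamous epithelium were higher, the next after Krt4 being Sprr1a, a cornified envelope protein (13.7 against 0.476 CPM). Carbonic anhydrases gave 2 higher and 4 lower of 7 measured, median log2 ratio -0.32. Car2, a cytosolic form, was at 1153 CPM in Cys and 3.57 CPM in Bud (323-fold higher, 95% interval 196 to 577). Car9 (42.9 against 370.1 CPM), a membrane form, and Car8 (1.83 against 88.6 CPM) were lower. Galectins gave 3 higher and 3 lower of 8 measured, median log2 ratio -0.20. Lgals2 was at 418 CPM in Cys and 3287 CPM in Bud (7.87-fold lower, 95% interval 7.49 to 8.26), Lgals9 at 344 CPM in Cys and 1389 CPM in Bud and Lgals3 at 193 CPM in Cys and 85 CPM in Bud.

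**Figure D3:**
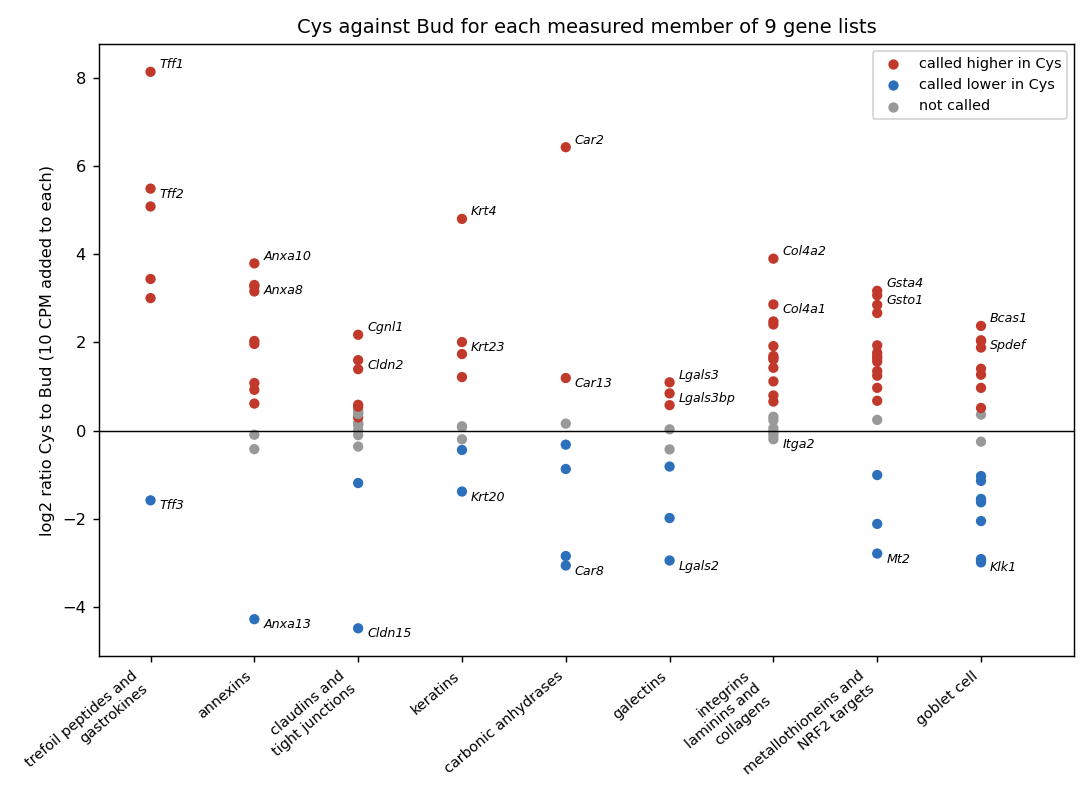
log2 ratio of Cys to Bud, with 10 CPM added to each, for every measured member of 9 gene lists (1 point a gene; red called higher, blue called lower, grey not called), with the lowest member and the highest pair named. Each list has called members on both sides of 0 except integrins, laminins and collagens, which have none called lower.

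Genes that build surface sugars also went both ways. Of glycosyltransferases 21 of 28 listed genes were measured, with 12 called higher and 6 called lower and a median log2 ratio of 0.57. Fut2, which adds the fucose of blood group H, was at 81.9 CPM in Cys and 4.76 CPM in Bud (17.2-fold higher, 95% interval 11 to 28.5). Gcnt1, which branches O-glycans, was at 76.5 CPM in Cys and 1.67 CPM in Bud (45.9-fold higher, 95% interval 22 to 115) and the mucin type Gcnt3 at 276 CPM in Cys and 56.2 CPM in Bud. B4galnt2 was at 2.05 CPM in Cys and 378 CPM in Bud (184-fold lower, 95% interval 96.8 to 404). St6galnac2, a sialyltransferase, was at 7.76 CPM in Cys and 56.4 CPM in Bud and B3gnt7 at 0.228 CPM in Cys and 17.9 CPM in Bud. Mucins gave 1 higher and 2 lower of 4 measured, median log2 ratio -1.54. The transmembrane Muc13 was at 6.16 CPM in Cys and 317 CPM in Bud (51.5-fold lower, 95% interval 35.2 to 78.5), and Muc1 had 12 UMIs in Cys and none in Bud. Genes of ion channels and water transport gave 9 higher and 6 lower of 22 measured, median log2 ratio 0.02. The chloride channels Cftr (296 against 147 CPM) and Ano1 (158 against 5 CPM) and the potassium channel subunit Kcne3 (616 against 301 CPM) were higher. The basolateral chloride importer Slc12a2 (335 against 851 CPM) and the apical chloride exchanger Slc26a3 (0.685 against 24.1 CPM) were lower.

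Secreted proteases, their inhibitors and signals were called in both directions. Matrix and secreted proteases gave 12 higher and 3 lower of 21 measured, median log2 ratio 0.71. Mmp14, a membrane-bound collagenase, had no UMI in Bud and 109.6 CPM in Cys (at least 153-fold higher; 24 in WT). Ctsl was at 245 CPM in Cys and 34.5 CPM in Bud and the urokinase receptor Plaur at 63.7 CPM in Cys and 13.8 CPM in Bud. Serpins and other inhibitors gave 9 higher and 3 lower of 15 measured, median log2 ratio 0.56, with Serpinb6a at 629 CPM in Cys and 272 CPM in Bud and Timp2 at 85.6 CPM in Cys and 21.2 CPM in Bud. Chemokines and cytokines gave 8 higher and 5 lower of 18 measured, median log2 ratio 0.24. Ccl25, the chemokine that draws lymphocytes to the small bowel, was at 7.3 CPM in Cys and 491 CPM in Bud (67.2-fold lower, 95% interval 47.5 to 98.6), opposite to Il33. EGF family and ERBB receptor genes gave 4 higher and 0 lower of 9 measured, median log2 ratio 0.44. The ligands were higher, Areg at 162 CPM in Cys and 26.2 CPM in Bud, Hbegf at 36.5 CPM in Cys and 15 CPM in Bud, Btc at 57.5 CPM in Cys and 27.6 CPM in Bud and Tgfa at 26.5 CPM in Cys and 8.33 CPM in Bud. Their receptors Egfr (20.5 against 23.3 CPM) and Erbb2 (55.7 against 38.6 CPM) were not called. Epithelial defence genes gave 3 higher and 8 lower of 14 measured, median log2 ratio -0.43. Ltf was at 569 CPM in Cys and 0.476 CPM in Bud (1194-fold higher, 95% interval 330.1 to 9862). Lypd8, which keeps bacteria from the surface, was at 27.2 CPM in Cys and 695 CPM in Bud (25.6-fold lower, 95% interval 21.3 to 31). Reg4 and Reg3g had no UMI in Cys and were at 100.3 and 30.2 CPM in Bud. IGF genes gave 4 higher and 3 lower of 7 measured, median log2 ratio 0.61. Igfbp5 was higher (50.4 against 0.714 CPM) and Igfbp4 lower (2.28 against 86.7 CPM).

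The pathway of LKB1 itself had few calls between the null libraries. Of its complex and kinases 20 of 26 listed genes were measured, with 2 called higher and 2 called lower and a median log2 ratio of -0.06. Prkab1, a regulatory subunit of AMPK, was at 99.7 CPM in Cys and 61.2 CPM in Bud and Sik1, a kinase that LKB1 activates, at 13.9 CPM in Cys and 4.05 CPM in Bud. The pseudokinase Stradb was at 12.8 CPM in Cys and 23.6 CPM in Bud. The catalytic subunits of AMPK, Prkaa1 (29.9 against 35.5 CPM) and Prkaa2 (32.4 against 25.2 CPM), and the scaffold Cab39, MO25 (128 against 89.8 CPM), were not called. Targets of CREB and its CRTC coactivators, which the SIK kinases restrain, gave 5 higher and 4 lower of 15 measured, median log2 ratio 0.14. Nr4a1 was at 53.2 CPM in Cys and 47.9 CPM in Bud (ratio 1.11, 95% interval 0.916 to 1.35). It was at 4.71 CPM in WT, 7.05 CPM in het and 14.5 CPM in fetal, so both null libraries lay above the other 3 for this gene. The list of CREB and CRTC targets as a whole summed to 587 CPM in Cys, 458 in Bud, 245 in WT, 365 in het and 446 in fetal. Bud and fetal were thus close for the list. The phosphodiesterases Pde4d (77.1 against 19.3 CPM) and Pde4b (2.05 against 17.6 CPM) went opposite ways. Immediate early genes gave 4 higher and 7 lower of 19 measured, median log2 ratio -0.10. Dissociation stress genes, which also answer to handling, gave 4 higher and 6 lower of 13 measured, median log2 ratio -0.45. Of these, Fos (89.2 against 166 CPM), Jun (21.7 against 85 CPM) and Egr1 (21.2 against 55.5 CPM) were lower and Junb (115 against 72.2 CPM) and Ier3 (166 against 56.9 CPM) higher. ERK targets gave 6 higher and 3 lower of 16 measured, median log2 ratio 0.07. TGF-beta and BMP targets gave 7 higher and 5 lower of 15 measured, median log2 ratio 0.29, with Id2 at 306 CPM in Cys and 127 CPM in Bud and Pmepa1 at 134 CPM in Cys and 38.3 CPM in Bud.

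Proliferation genes, glycolysis, cholesterol synthesis and the proteasome had few calls. Of G2 and M phase genes 20 of 20 listed genes were measured, with 0 called higher and 2 called lower and a median log2 ratio of 0.00. Mki67, a marker of cycling cells, was at 199.9 CPM in Cys and 195 CPM in Bud (ratio 1.03, 95% interval 0.933 to 1.13), and Top2a was lower (144 against 232 CPM). S phase genes gave 2 higher and 3 lower of 20 measured, median log2 ratio -0.30, with Pcna at 503 CPM in Cys and 698 CPM in Bud, not called. Glycolysis gave 2 higher and 0 lower of 15 measured, median log2 ratio 0.15. Of it, Hk1 (92.7 against 32.4 CPM) and the glucose carrier Slc2a1 (104 against 68.1 CPM) were higher. Cholesterol synthesis gave 2 higher and 1 lower of 18 measured, median log2 ratio 0.11. The proteasome gave 1 higher and 1 lower of 18 measured, median log2 ratio 0.14. Oxidative phosphorylation gave 0 higher and 6 lower of 21 measured, median log2 ratio -0.42. Cytosolic ribosomal proteins gave 0 higher and 5 lower of 22 measured, median log2 ratio -0.45. Cox6c was at 354 CPM in Cys and 801 CPM in Bud and Rpl8 at 1082 CPM in Cys and 2138 CPM in Bud. For scale, the median ratio of Cys to Bud over the 7422 genes with at least 50 UMIs in both libraries was 0.958. Hypoxia targets gave 5 higher and 4 lower of 14 measured, median log2 ratio -0.01. Interferon and MHC genes gave 3 higher and 4 lower of 13 measured, median log2 ratio 0.00. The M cell list gave 3 higher and 1 lower of 6 measured, median log2 ratio 0.41. The unfolded protein response list gave 9 higher and 3 lower of 17 measured, median log2 ratio 0.53, and 3 of the higher members passed a ratio of at least 2. Calr (1054 against 476 CPM), Pdia6 (596 against 299.8 CPM) and Hspa5 (783 against 513 CPM), which assist folding, were among the higher genes. The 3 lower ones were the stress response genes Atf4 (294 against 549 CPM), Ddit3 (2.74 against 9.53 CPM) and Trib3 (10.3 against 24.8 CPM). Cadherins and desmosomes gave 6 higher and 5 lower of 15 measured, median log2 ratio -0.03. The pancreatic and biliary duct list gave 4 higher and 1 lower of 5 measured, median log2 ratio 0.96, with Sox17 at 56.6 CPM in Cys and 0.476 CPM in Bud.

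Single cells show how widely these differences were spread. For the fetal list, a thinned Cys cell held 10 to 144 UMIs with a median of 63. A Bud cell held 0 to 69 with a median of 13. The ranges overlapped, as 194 Bud cells reached the lowest Cys cell, but 1 Bud cell reached the median of Cys. For gastric genes the values were 0 to 207 with a median of 16 in Cys and 0 to 5 with a median of 0 in Bud. At least 10 gastric UMIs were found in 230 Cys cells (73.2%, interval 68.0% to 78.1%) and in 0 Bud cells, which allows up to 1.15%. For enterocyte genes, Cys cells held 0 to 7 UMIs with a median of 1 and Bud cells 0 to 126 with a median of 9, and no Cys cell reached the median of Bud. The p53 list had a median of 7 in Cys (0 to 18) and 2 in Bud (0 to 19), with 15 Bud cells at or above the Cys median. Integrins, laminins and collagens had a median of 5 (0 to 18) and 1 (0 to 9), with 16 Bud cells. Sums of the stem cell list overlapped broadly, with medians of 9 in Cys and 12 in Bud and a highest cell of 35 in both. The list came to 3402 CPM in Cys and 3851 CPM in Bud. Prom1, its only member called higher, gave a large part of the Cys sum (value above). The overlap therefore does not show that Lgr5, Smoc2 or Ascl2 were alike in single cells. G2 and M phase genes had medians of 2 in both.

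**Figure D4:**
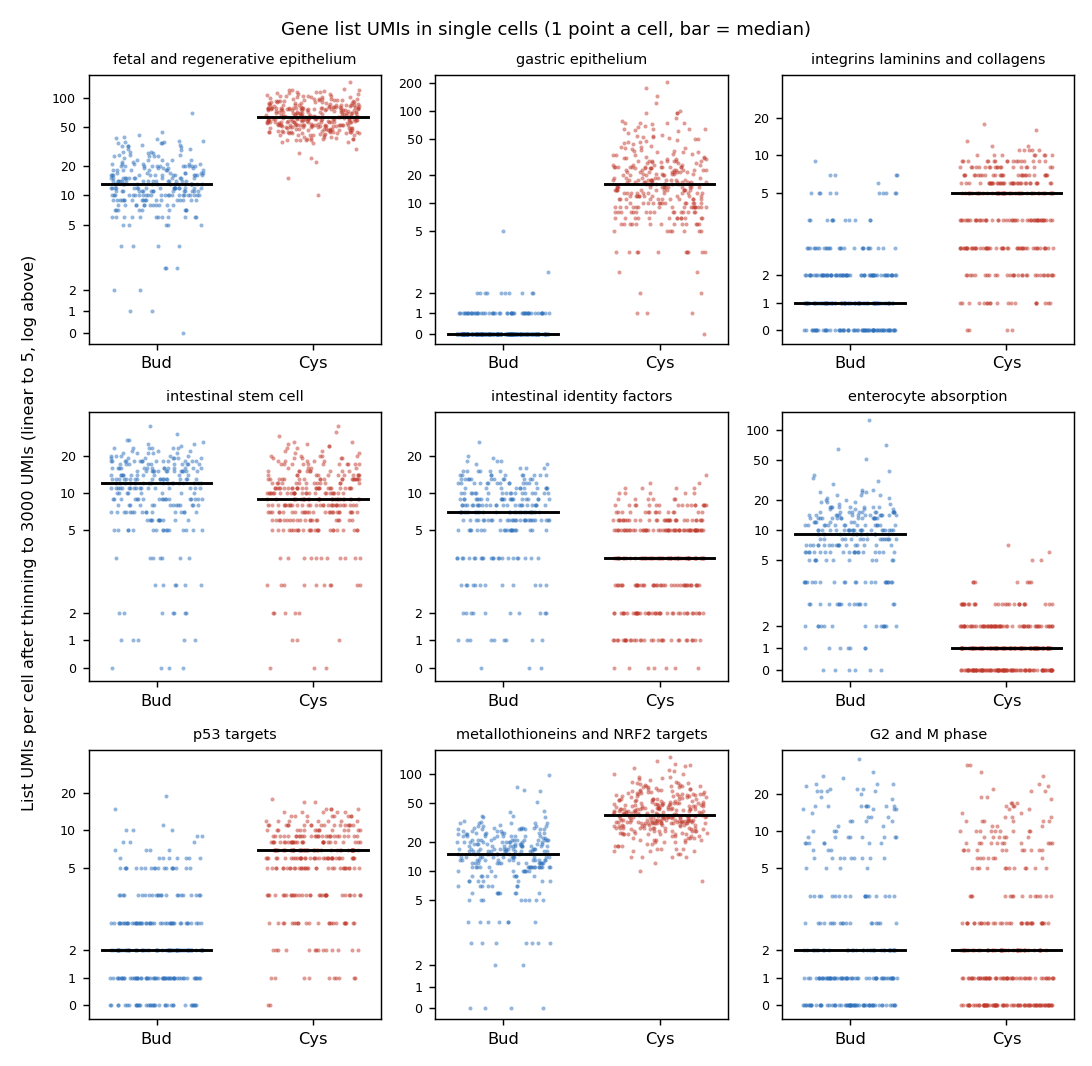
UMIs of 9 gene lists in each cell after thinning to 3000 UMIs (y axis, linear to 5 and log above), 1 point a cell, with 262 Bud cells (blue) and 314 Cys cells (red) and the median as a bar. For the fetal list 313 of 314 Cys cells reach the Bud median of 13 UMIs, while G2 and M phase points overlap.

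Within Cys, cells were not alike. The variance of the thinned counts was 23 times the mean for Tff1, 21.9 for Tff2, 4.65 for Clu and 2.69 for Msln, where counting alone gives about 1. Across the 314 thinned Cys cells, which share 1 plate, Tff1 and Tff2 had Pearson's r of 0.54 and Spearman's rho of 0.36. Tff1 and Gkn1 had 0.40 and 0.34, and Clu and Ltf 0.44 and 0.35. These pairs were picked from the higher values. Clu and Tff1 had 0.06 and 0.08, and Msln and Tff1 -0.06 and -0.10. The summed fetal and gastric lists had -0.06 and -0.04, so they did not vary together across Cys cells. Tff2 and Muc2 had the highest r of the pairs, 0.76, with a rho of 0.20. Without the cell with most Muc2, r was 0.73 for Tff2 and Muc2 and 0.45 for Tff1 and Tff2. These are descriptions of cells that share library and depth. The highest Cys cell held 6.47% of all Tff2 UMIs and 2.91% of all Tff1 UMIs of the library, against 2.78% for Msln.

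The other libraries place the levels of Cys and Bud, without a test. Msln, Clu, Col4a2 and Anxa1 were also high in fetal, at 1032, 4158, 111 and 1991 CPM. Tff1, Dpcr1 and Gkn1 were at 2.9, 3.58 and 0 CPM there. Car2 and Il33 lay between, at 329 and 239.5 CPM. Tek was at 0 CPM in WT, 1.59 CPM in het and 0 CPM in fetal. Some genes that were high in Cys were not at the WT level in Bud. Anxa1 was at 115 CPM in Bud and 8.18 in WT, Il33 at 21.9 and 1.98, and S100a6 at 378 and 99.1. A few genes differed between the null libraries and also among the other adult libraries. Erdr1, a gene of the pseudoautosomal region, was at 1.14 CPM in Cys and 252 CPM in Bud, and at 4.46 CPM in WT, 166 CPM in het and 173 CPM in fetal. Pla2g2a, a secreted phospholipase of Paneth cells, had no UMI in Cys and 239 CPM in Bud, with 3.22 CPM in WT, 13.7 CPM in het and 0.17 CPM in fetal. The Y-linked Ddx3y was at 55.7 CPM in Cys and 74.1 in Bud, and Xist had 2 UMIs in each. Ddx3y was also found in WT and het, at 66.7 and 158 CPM. The fetal library had 1501 Xist UMIs (256 CPM) and no UMI of Ddx3y, Eif2s3y, Uty or Kdm5d, so it differs in sex from the other 4. The part of sex in levels set beside fetal was not tested. Whether both null cultures share a founder animal or strain was not tested.

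**Figure D5:**
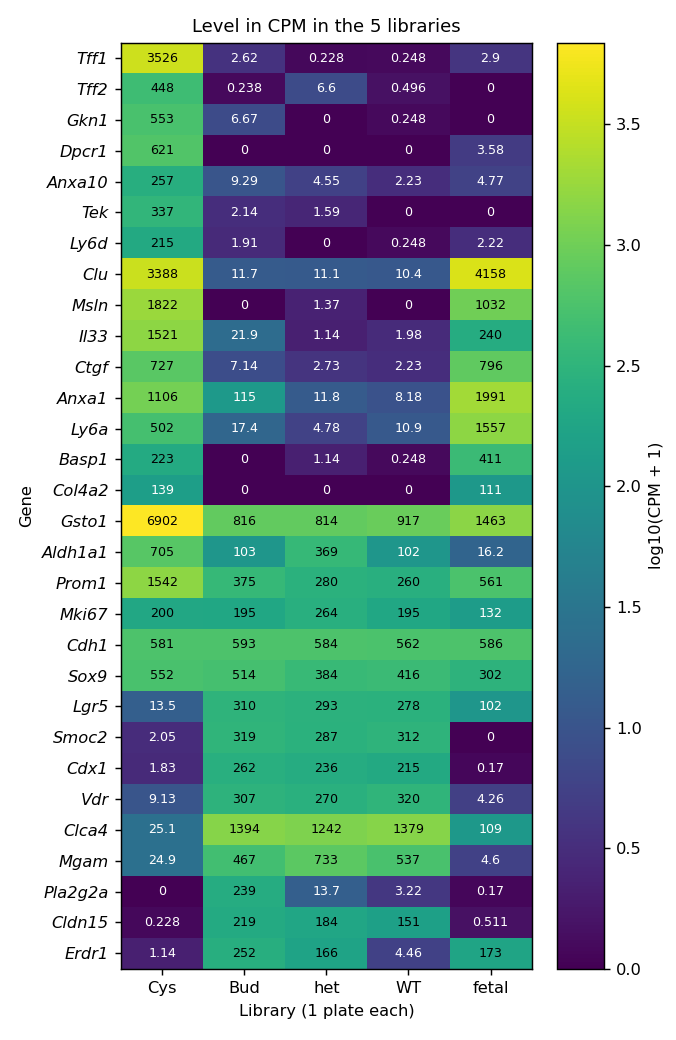
Level in CPM (numbers) of 30 genes in the 5 libraries, coloured by log10(CPM + 1), 1 plate each. Tff1 (3526 CPM), Dpcr1 and Tek are high in Cys alone among these libraries, Msln and Clu are high in Cys and fetal, and Cdx1 and Smoc2 are low in both.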

How the data were processed

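Single cells of organoids were sorted into plates of 384 wells and sequenced with SORT-seq, which tags transcripts near the 3' end, per the labels' protocols. Each plate has 3 deposited gene tables, 1 value per well: UMI counts, read counts, and the authors' estimated counts of transcripts. The UMI counts, deposited as whole numbers without normalization, are the basis of every value, and the transcript table (UMI counts corrected for 4096 possible codes) served as an alternative. The submitters' processing notes list the build GRCm38 with featureCounts 1.5.2, Seurat 4.1.0 and STAR 2.6.1. Neither the strand setting of the counter nor its treatment of ambiguous reads was given in the sources used here. Levels of near-identical or overlapping genes (Reg, Gst and Hox genes among others) are therefore uncertain. No mitochondrial genes are listed.

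Spike-in rows were dropped and wells with 1000 to 100000 UMIs kept. No doublet caller was run, since wells hold sorted cells; 2 Cys wells over the limit were left out. UMIs were summed over kept cells, 4381530 in Cys and 4199196 in Bud, and scaled to CPM. Genes with at least 10 UMIs over both libraries were measured, and called where the ratio was at least 1.5 and its exact conditional binomial 95% interval excluded 1. Shares of cells have exact Clopper-Pearson intervals, and a count of 0 was set to a floor of 3 UMIs per library for bounds on folds. With 1 plate a side there is no test. For values per cell, each cell was thinned at random to 3000 UMIs. Log2 ratios had 10 CPM added to both values, which understates low genes. These ratios move with the setting for many genes, as given in the closing section.

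The 60 gene lists and the comparison itself were chosen with earlier results of these data known, so directions of lists are descriptions; some genes are in several lists. Named genes were the 20 largest and 20 smallest log2 ratios with a UMI in at least 10% of cells of the higher library, the 10 largest and 10 smallest differences in CPM, up to 5 members per list with at least 20 CPM and the largest ratios, the 10 most variable called genes per direction with at least 100 CPM, Stk11 and canonical markers, leaving out ribosomal protein, Gm and Rik genes. A few genes that this rule names are not reported here. Other list members named here, such as Gclm, Spdef, Agr2, Ajuba, Itga3 and the members that were not called, were chosen after their values were seen. Promoters are those of RefSeq on GRCm38.p6. Counting steps were tested on simulated data. Tools were Python 3.11.15 with numpy 2.4.6, scipy 1.17.1 and pandas 2.3.3.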

Additional observations from a re-analysis of the deposited data

Results flagged for a closer look

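The 2 Cys wells over 100000 UMIs, which held 599752 UMIs together and are not among the kept cells, showed the Cys pattern when pooled. They held 452137 and 147615 UMIs, so the pooled levels rest mostly on 1 well. Clu was at 3473 CPM in them, Tff1 at 2658 CPM and Msln at 1704 CPM, while Lgr5 was at 10.0 CPM, Clca4 at 6.67 CPM and Cdx1 had no UMI. They were singled out because this signal lies in wells outside the main comparison. Including them gave 2263 higher and 2294 lower genes. In the Bud wells under 1000 UMIs (66 wells with 32871 UMIs), Clu, Tff1 and Msln had no UMI, at a depth too low to show their levels in the kept Bud cells. The Cys wells under 1000 UMIs (25 wells with 12854 UMIs) had Clu at 1634 CPM, Tff1 at 2645 CPM and Msln at 622 CPM. Lgr5 and Cdx1 had no UMI there, and Clca4 had 3 UMIs (233 CPM). Whether the large wells hold more than 1 cell was not tested.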

How the results depend on the processing

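No paired analysis was possible because each side is 1 plate. No gene called in the main comparison was called in the other direction under any of the settings tried. Counts of genes over all genes moved by over 1.5 times under 2 settings: a ratio of at least 2 gave 1409 higher and 1404 lower genes, and cells thinned to 3000 UMIs gave 1415 and 1543. Scaling to the median ratio gave 2337 higher and 2116 lower. Of 120 list counts (60 lists, higher and lower), 29 moved by over 1.5 times after thinning, 25 at a ratio of 2, 19 in cells with at least 3 G2 and M phase UMIs and 16 with every cell weighted equally. The other settings moved 0 to 13. At a ratio of 2, higher genes fell from 9 to 3 in the unfolded protein response, from 5 to 0 in hypoxia and from 6 to 3 in cadherins and desmosomes; lower genes fell from 5 to 0 in ribosomal proteins and from 6 to 2 in oxidative phosphorylation. After thinning, lower genes fell from 5 to 0 in TGF-beta and BMP targets and from 5 to 2 in enteroendocrine genes, and higher genes from 7 to 3 in senescence and from 8 to 4 in chemokines. With every cell weighted equally, lower WNT genes rose from 7 to 11. Log2 ratios of named genes moved too, beyond their counting intervals: of 270 genes, 145 moved with 1 CPM added in place of 10, 131 after thinning, 125 in cells with at least 3 G2 and M phase UMIs and 118 with equal weights. Among smaller counts, 2 stem cell genes were higher with at least 3000 UMIs per well and without wells rich in Kcnq1ot1; with every cell weighted equally 1 fetal gene was lower and 1 enterocyte gene higher; 1 gastric gene was lower with at least 50 UMIs per gene, with a UMI in at least 5% of cells, in cells with at least 3 G2 and M phase UMIs and after thinning; 1 identity factor was higher at a ratio of 2. In cells with at least 3 G2 and M phase UMIs (139 Cys and 110 Bud cells) 10 enterocyte genes and 1 gene of integrins, laminins and collagens were lower. These cells held 2150326 UMIs in Cys and 1936367 in Bud. The causes of the changes between settings were not tested. Depth limits single genes: a gene with no UMI in Bud is known only to lie below about 0.714 CPM, and in Cys below 0.685 CPM. Nothing measures the spread between cultures, since each growth form is 1 library.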
